A study of Mus musculus with 18 samples.

Results

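The Hedgehog pathway was followed through 9 of the 27179 genes in the count files, chosen by name and matched by Entrez identifier: the signal transducer Smo, the ligand-binding proteins Ptch1, Hhip, Boc, Cdon and Gas1, and the transcription factors Gli1, Gli2 and Gli3. RNA-seq counts came from 18 libraries of mouse embryonic stem cells (ESCs) differentiated as embryoid bodies toward spinal motor neurons, in 6 groups of 3 independent differentiations. All cultures received 1 µM retinoic acid (RA) and 0.5 µM SAG, a small molecule that activates Smo directly, from day 0, so no group lacked Hedgehog stimulation. Day 2 progenitors came from the iCre line and received no doxycycline (Dox). The other 5 groups were collected on day 4. Control neurons came from the iHoxc6 line without Dox, and iHoxc6, iHoxc8, iHoxc9 and iHoxc10 neurons each came from a line in which 3 µg/ml Dox, given for 48 h, switched on a Flag-tagged transgene of that name. Dox and the transgene were therefore always present together, and the day 2 and day 4 groups also differed in line.

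In the Hedgehog pathway, a secreted ligand binds Ptch1, a membrane protein that holds Smo inactive, and Smo then acts through the primary cilium to turn Gli proteins into activators. Gli2 is the main early activator, Gli3 is mostly processed into a repressor in the absence of signal, and Gli1 is an activator that is itself a target gene. Ptch1 and Hhip are target genes too and bind ligand, which gives negative feedback, whereas Boc, Cdon and Gas1 are co-receptors that help ligand reach Ptch1 and fall when signaling is high. In the ventral neural tube, graded Sonic hedgehog from the notochord and floor plate places motor neuron progenitors between other progenitor domains, and progenitors, rather than neurons, carry most of the response. SAG acts below Ptch1 and the co-receptors.

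Libraries held between 24498630 and 33168533 counts, and 3 counts corresponded to between 0.0883 and 0.122 CPM (reads of a gene relative to the size of its library), a floor that covers counting error only. All 9 genes were well above it in every library. The own transgene was switched on in every line: Hoxc8, Hoxc9 and Hoxc10 reached at least 361, 213 and 425 CPM in their own line and at most 0.399, 0.133 and 0.353 CPM elsewhere, and Hoxc6 reached at least 499.9 CPM against at most 49.4 CPM elsewhere. The libraries were sequenced in 4 runs by their flow cells: day 2 progenitors, then control with iHoxc6, then iHoxc8, then iHoxc9 with iHoxc10. Run and group can be told apart in only 2 comparisons, iHoxc6 against control and iHoxc9 against iHoxc10. The second control library stood apart from the other controls. Its 4 markers of cycling cells (Mki67, Top2a, Ccnb1 and Cdk1) summed to 743 CPM, against 448 and 338 CPM, and its 5 neural progenitor markers (Sox1, Sox2, Nes, Hes5 and Vim) to 1363 CPM, against 811 and 725 CPM. It also held the most Gli1, Gli2, Gli3, Ptch1, Hhip, Boc and Smo of the 3 controls, so the values without it are given where they change a call.

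Levels are CPM scaled by edgeR's TMM factors. Differences are log2 fold changes from the quasi-likelihood test of edgeR, fitted to the 18 libraries together over 20944 genes, with Benjamini-Hochberg adjusted p-values over all of these genes. A gene passed at an adjusted p under 0.01, and passed the stricter call where the log2 fold change also exceeded 2 in size. Replicates were separate differentiations, so the tests measure the spread between differentiations of a given line.

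**Figure D1:**
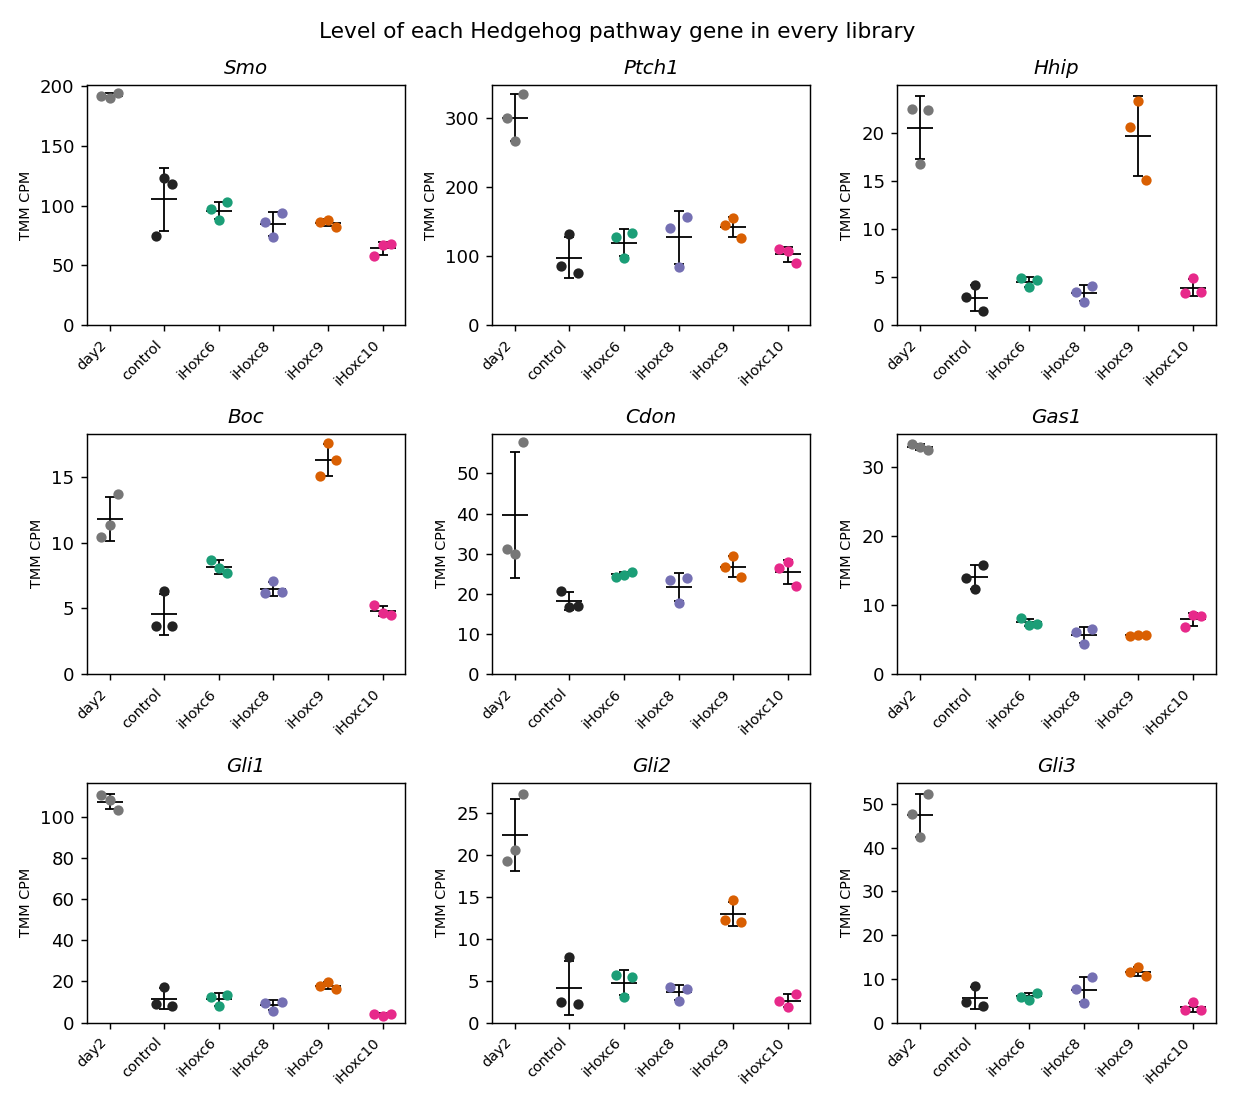
TMM-scaled CPM (linear axes from 0) of the 9 genes in the 3 libraries of each group, as points, with the mean as a horizontal line and the SD as bars. Day 2 progenitors were highest for 8 of the 9 genes, iHoxc9 neurons were highest for Boc at 16.3 CPM, and iHoxc9 was close to day 2 for Hhip, at 19.7 against 20.5 CPM.

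The first comparison asks how the pathway changed as progenitors became neurons. All 9 genes fell between day 2 progenitors and control neurons, where 21.2% of all tested genes fell, and no control library reached a day 2 library for any of the 9 (the groups did not overlap for 50.2% of all genes). The largest falls were in the Gli genes and Hhip, which were the 4 that passed the stricter call (12.6% of all genes passed it in either direction). The median of the 9 was -1.62 on the log2 scale, against 0 over all genes.

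Gli1 (chromosome 10, 127329882 to 127341579, GRCm38) had 111, 108 and 103 CPM in the 3 day 2 libraries and 9.28, 17.5 and 8.05 CPM in the 3 control libraries. The groups lay far apart, and the second control library was the highest of the controls. Gli1 fell by 3.21 on the log2 scale (SE 0.26, 9.25-fold lower, edgeR adjusted p = 5.3e-10). A stretch of 62 exonic bases is shared with Arhgap9 on the opposite strand, and the strand setting of the counting is not given in the sources used here; Arhgap9 itself had at most 8 counts in any library, against at least 89 for Gli1.

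Gli3 (chromosome 13, 15463723 to 15730026) had 47.8, 42.4 and 52.2 CPM on day 2 and 4.72, 8.43 and 3.78 CPM in control. It fell by 3.07 (SE 0.27, 8.42-fold lower, edgeR adjusted p = 2.79e-09). Gli2 (chromosome 1, 118834061 to 119054405) had 19.3, 20.6 and 27.3 CPM on day 2 and 2.44, 7.82 and 2.17 CPM in control. It fell by 2.44 (SE 0.35, 5.43-fold lower, edgeR adjusted p = 3.43e-06). In both genes the second control library was the highest of the 3.

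Hhip (chromosome 8, 79965850 to 80058060), the secreted and membrane-bound ligand trap, had 22.5, 16.8 and 22.4 CPM on day 2 and 2.89, 4.12 and 1.42 CPM in control, a fall of 2.87 (SE 0.28, 7.31-fold lower, edgeR adjusted p = 9.92e-09). The other feedback gene, Ptch1 (chromosome 13, 63508328 to 63573460), had 300.1, 266 and 334 CPM on day 2 and 85.4, 131 and 75.7 CPM in control. Its fall of 1.62 (SE 0.21, 3.08-fold lower, edgeR adjusted p = 8.07e-07) left a level in control neurons that was well above the floor. Smo (chromosome 6, 29735497 to 29761366) kept the largest share of its level of the 9 genes, with 192, 191 and 194 CPM on day 2 and 74.8, 123 and 118 CPM in control, a fall of 0.87 (SE 0.15, edgeR adjusted p = 4.38e-05).

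The 3 co-receptors fell less than the Gli genes. Boc (chromosome 16, 44485045 to 44558870) had 10.4, 11.3 and 13.7 CPM on day 2 and 3.63, 6.32 and 3.63 CPM in control, and it fell by 1.39 (SE 0.19, edgeR adjusted p = 1.62e-06). Gas1 (chromosome 13, 60174405 to 60177535), which is anchored to the membrane by a lipid, had 33.3, 32.9 and 32.4 CPM on day 2 and 13.9, 12.2 and 15.7 CPM in control, and it fell by 1.23 (SE 0.15, edgeR adjusted p = 3.87e-07). Cdon (chromosome 9, 35421528 to 35507652) had 31.1, 30.0 and 57.8 CPM on day 2 and 20.7, 16.8 and 16.8 CPM in control, and it fell by 1.13 (SE 0.20, edgeR adjusted p = 4.33e-05). The third day 2 library held nearly all of the spread of Cdon.

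Cell state markers moved in the same comparison. All 4 markers of cycling cells fell, and their sum went from between 1357 and 1675 CPM on day 2 to between 338 and 743 CPM in control. All 5 neuronal markers (Tubb3, Elavl3, Stmn2, Map2 and Dcx) rose, from sums of 278 to 570 CPM to sums of 5366 to 5720 CPM, as did all 5 motor neuron markers (Isl1, Mnx1, Chat, Slc18a3 and Lhx3), from 18.02 to 41.7 CPM to 493 to 523 CPM. Of the 5 neural progenitor markers, Sox1 and Sox2 fell, and the sum of the list overlapped between the groups. Vim and Nes were the largest parts of that sum, so it says little of the others. Their means were 460 and 160 CPM on day 2 and 656 and 237 CPM in control, and neither passed. Of the 4 floor plate markers 3 rose, from sums of 138 to 362 CPM to sums of 363 to 471 CPM. In bulk RNA, fewer cells of a type and less RNA per cell cannot be told apart, and the part of these shifts in the 9 genes was not tested. Lists of 7 other cell types (pluripotent cells, mesoderm, endoderm, neural crest, the astrocyte and oligodendrocyte lineage, endothelium and skeletal muscle) summed to between 0 and 10.4 CPM in every library.

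**Figure D2:**
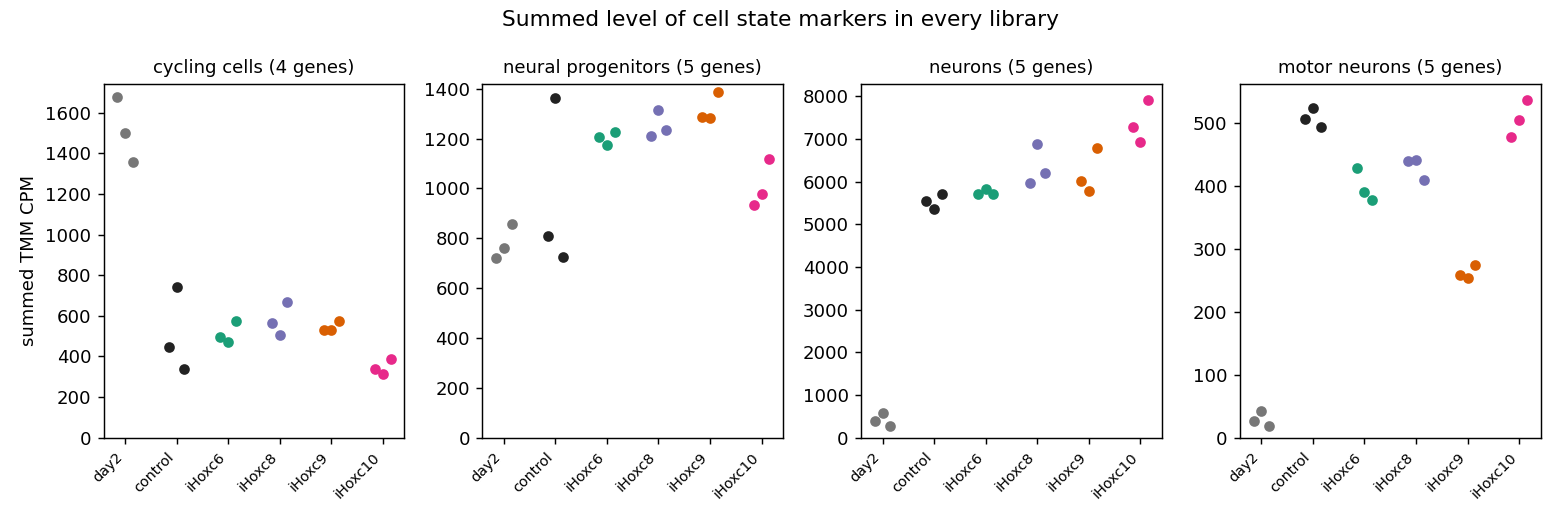
Summed TMM-scaled CPM (linear axes from 0) of the markers of cycling cells, neural progenitors, neurons and motor neurons in each of the 18 libraries, 1 point a library. The cycling sum was 1357 to 1675 CPM on day 2 and 312 to 743 CPM on day 4, and the motor neuron sum of iHoxc9, 254 to 274 CPM, was below that of every other day 4 group.

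The falls against day 2 were also computed for the iHox neurons, which share the day 2 libraries with the control comparison. In iHoxc6, iHoxc8, iHoxc9 and iHoxc10 neurons, 8, 9, 5 and 9 of the 9 genes fell, where 23.9%, 22.3%, 23.3% and 26.1% of all genes fell. None of the 9 passed as higher by edgeR, where 22.7%, 22.3%, 23.4% and 24.1% of all genes rose, although by unadjusted p (under 0.05) Boc was higher in iHoxc9. The groups did not overlap for 9, 9, 8 and 9 of the 9 genes, and for 59.4%, 54.5%, 59.7% and 60.3% of all genes. Gli1 fell by 3.25 (SE 0.26), 3.68 (SE 0.27), 2.59 (SE 0.25) and 4.76 (SE 0.28) in the same order, and the level in iHoxc10 was 27.1-fold lower than on day 2.

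In iHoxc9 neurons 4 genes did not pass against day 2. Hhip had 20.6, 23.3 and 15.1 CPM there, which overlapped with the day 2 libraries at 22.5, 16.8 and 22.4 CPM, with a log2 fold change of -0.06 (SE 0.25, edgeR adjusted p = 0.883). Boc had 15.1, 17.6 and 16.3 CPM, above all 3 day 2 libraries, with a log2 fold change of 0.47 (SE 0.18, edgeR adjusted p = 0.0317). Gli2, at -0.79 (SE 0.33, edgeR adjusted p = 0.0444), and Cdon, at -0.57 (SE 0.20, edgeR adjusted p = 0.0166), lay below day 2 in all 3 libraries without passing. Gli2 and Cdon passed under other settings: Gli2 at an adjusted p of 0.00266 when only the compared groups were fitted, and Cdon at 0.00622 by DESeq2 and at 0.00831 with DESeq2's size factors. Boc in iHoxc9 passed as higher, at 0.00994, without the third day 2 library.

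The calls of Cdon in iHoxc6 and iHoxc10 depended on the libraries fitted. In iHoxc6, 4 of 6 such fits lost the call, without the third day 2 library (log2 fold change -0.30, edgeR adjusted p = 0.0934) or without any of the iHoxc6 libraries (edgeR adjusted p = 0.0152 to 0.0197). In iHoxc10, 3 of 6 lost it, without the third day 2 library (log2 fold change -0.27, edgeR adjusted p = 0.137) or without iHoxc10 library 1 (0.0161) or 3 (0.0416). Fitting only the compared groups lost it in iHoxc6 (edgeR adjusted p = 0.0394), iHoxc8 (0.0121) and iHoxc10 (0.0569). In iHoxc10 it also missed the threshold in the fit with a replicate block (edgeR adjusted p = 0.0120), which leaves 8 of 9 genes lower. In iHoxc6, Boc missed the threshold with all libraries (log2 fold change -0.54, SE 0.18, edgeR adjusted p = 0.0153) and passed at 0.00128 by DESeq2.

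**Figure D3:**
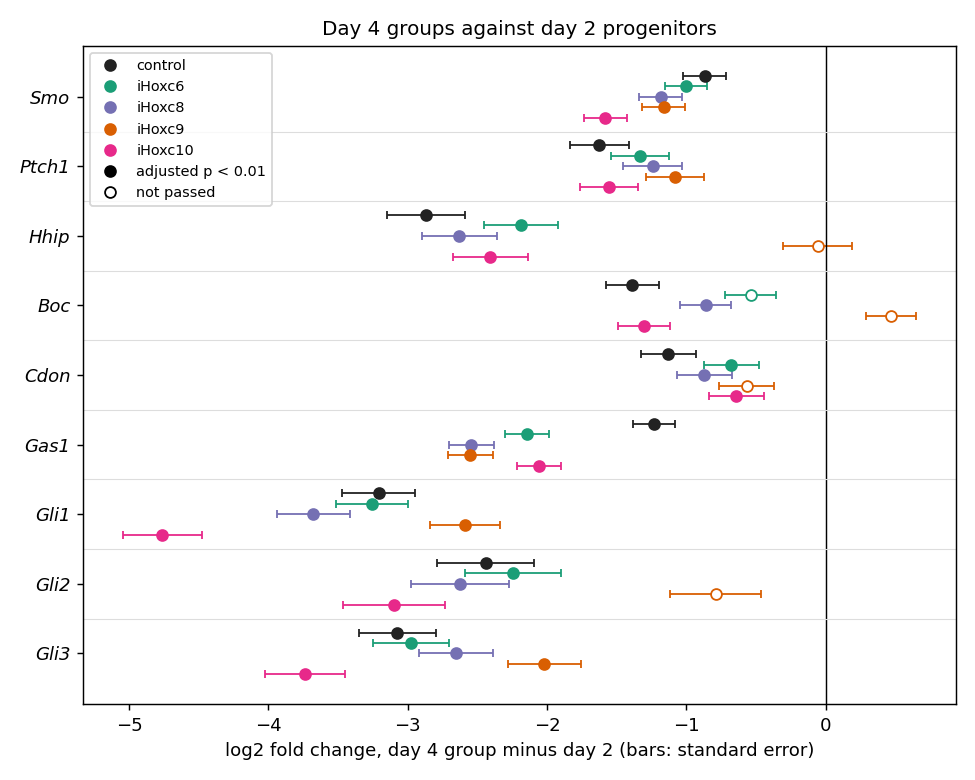
Log2 fold changes of the 9 genes in the 5 day 4 groups against day 2 progenitors (below 0 means lower on day 4), with the standard error as bars; filled points passed at an adjusted p under 0.01. Hhip in iHoxc9, at -0.06, and Boc in iHoxc9, at 0.47, lay to the right of all other points of those genes.

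The next comparison sets each iHox line against control neurons of the same day. Dox and the induced transgene came together in every line, and iHoxc8, iHoxc9 and iHoxc10 also differed from control in line and sequencing run. Effects of the transgene alone cannot be told apart from these. Hhip, Boc, Gli2 and Gli3 rose in iHoxc9 neurons against control, where 6.95% of all genes rose, and Gas1 fell, where 7.13% fell. In iHoxc10 neurons Gli1, Smo and Gas1 fell, where 7.75% of all genes fell and 6.67% rose. In iHoxc6 and iHoxc8 neurons Gas1 alone passed, as lower, where 0.224% and 1.09% of all genes fell. The groups did not overlap for 3, 1, 6 and 4 of the 9 genes, from iHoxc6 to iHoxc10, beside 24.4%, 19.8%, 38.6% and 34.8% of all genes. The 4 comparisons share the control libraries and are given side by side.

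Hhip was the gene with the largest rise. Its levels were 20.6, 23.3 and 15.1 CPM in iHoxc9 and between 1.42 and 4.88 CPM in all libraries of control, iHoxc6, iHoxc8 and iHoxc10. The iHoxc9 libraries did not overlap with any other day 4 library. Against control, Hhip rose by 2.81 (SE 0.28, 7.01-fold, edgeR adjusted p = 1.24e-07) in iHoxc9, the only stricter call among the 9 genes in the 4 comparisons with control; 2.7% of all genes passed that call in iHoxc9, and 0.115%, 0.22% and 1.48% did in the other 3 lines. In iHoxc6, iHoxc8 and iHoxc10 the log2 fold changes were 0.68 (SE 0.28), 0.24 (SE 0.28) and 0.46 (SE 0.28), none of which passed.

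Because Hhip moved most in iHoxc9 and Gli3 was among the largest falls from day 2, the sequences just upstream of both genes are shown, from RefSeq on GRCm38.p6, read 5′ to 3′ on the strand of the gene, with CpG dinucleotides in capitals. For Hhip it is the stretch of 198 bases at chr8:80058061-80058258 on the minus strand, and for Gli3 the stretch of 250 bases at chr13:15463473-15463722 on the plus strand.
Hhip: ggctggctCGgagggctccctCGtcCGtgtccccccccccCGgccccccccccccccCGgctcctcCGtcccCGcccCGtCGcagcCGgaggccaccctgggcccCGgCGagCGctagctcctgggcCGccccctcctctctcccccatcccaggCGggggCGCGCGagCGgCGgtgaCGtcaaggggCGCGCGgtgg
Gli3: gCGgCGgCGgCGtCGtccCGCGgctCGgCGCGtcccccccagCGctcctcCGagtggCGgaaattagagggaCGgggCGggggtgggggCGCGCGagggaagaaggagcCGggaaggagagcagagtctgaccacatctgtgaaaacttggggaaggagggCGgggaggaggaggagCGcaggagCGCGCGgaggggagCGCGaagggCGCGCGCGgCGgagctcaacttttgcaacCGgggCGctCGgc

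RefSeq promoters were found for 7 of the 9 genes, the others being Gli1 and Boc. The windows of Gli2, Ptch1 and Cdon lie inside the RefSeq span of the gene, so they precede a start that is not its outermost end. The 250 bases of Hhip reach into its span as well, and the 198 bases shown, with 24 CpG, are the part outside it. Over the 250 bases before the start used, GC content was 76% for Hhip, 72.8% for Gli3, 78.4% for Ptch1, 68.4% for Smo, 67.2% for Gli2, 58.8% for Gas1 and 42.8% for Cdon, beside a median of 52.4% over 32851 promoters. The 250 bases held 41 CpG for Ptch1, 34 for Gli3, 28 for Hhip, 22 for Gli2, 15 for Smo, 10 for Gas1 and 1 for Cdon, beside a median of 6. The Gli binding consensus GACCACCCA, searched on both strands from 250 bases before to 50 after the start, was in 0 of the 7 promoters and in 0.253% of all. This count describes the letters of these windows and says nothing of binding elsewhere.

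Boc also rose in iHoxc9, to 15.1, 17.6 and 16.3 CPM against 3.63, 6.32 and 3.63 CPM in control, without overlap. The log2 fold change was 1.85 (SE 0.19, 3.61-fold, edgeR adjusted p = 2.1e-07). In iHoxc6, Boc had 8.68, 8.06 and 7.68 CPM, above all controls, with a log2 fold change of 0.85 (SE 0.19, edgeR adjusted p = 0.0190). It passed there by DESeq2 (0.81, adjusted p = 0.00127) and, by edgeR, without the second control library (1.16, adjusted p = 0.000556). In iHoxc8 the log2 fold change was 0.52 (SE 0.19, edgeR adjusted p = 0.0920), and it passed without the second control library (0.84, edgeR adjusted p = 0.00249). In iHoxc10 Boc had 5.22, 4.62 and 4.50 CPM, within the range of the controls.

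The other co-receptors moved differently. Gas1 was lower than control in all 4 lines without overlap, with 8.05, 7.03 and 7.26 CPM in iHoxc6, 6.09, 4.34 and 6.44 CPM in iHoxc8, 5.48, 5.62 and 5.69 CPM in iHoxc9, and 6.83, 8.46 and 8.35 CPM in iHoxc10, against 13.9, 12.2 and 15.7 CPM in control. It fell by 0.91 (SE 0.16, edgeR adjusted p = 0.00229), 1.31 (SE 0.16, edgeR adjusted p = 3.39e-05), 1.32 (SE 0.16, edgeR adjusted p = 2.11e-06) and 0.83 (SE 0.16, edgeR adjusted p = 0.000492). The fall in iHoxc6, the comparison within a sequencing run, missed the threshold in 5 of 6 fits that left out a library (adjusted p up to 0.0250) and when only the compared groups were fitted (adjusted p = 0.0214). The control neurons differ from all 4 lines in the absence of Dox as well as of an induced transgene, and from iHoxc8, iHoxc9 and iHoxc10 in line and run too.

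Cdon had 24.2, 24.6 and 25.5 CPM in iHoxc6, 23.4, 17.6 and 23.96 CPM in iHoxc8, 26.7, 29.3 and 24.2 CPM in iHoxc9 and 26.4, 27.8 and 21.96 CPM in iHoxc10, against 20.7, 16.8 and 16.8 CPM in control. Its log2 fold changes, from 0.26 (SE 0.20) in iHoxc8 to 0.56 (SE 0.20) in iHoxc9, did not pass in any line (lowest edgeR adjusted p 0.0411).

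Among the Gli genes, Gli2 had 12.2, 14.6 and 11.98 CPM in iHoxc9, above all controls at 2.44, 7.82 and 2.17 CPM, and rose by 1.65 (SE 0.35, 3.14-fold, edgeR adjusted p = 0.00134). Gli3 had 11.7, 12.7 and 10.7 CPM in iHoxc9, above all controls at 4.72, 8.43 and 3.78 CPM, and rose by 1.05 (SE 0.27, 2.08-fold, edgeR adjusted p = 0.00562). The calls depended on single libraries. Gli2 missed the threshold without the first control library (1.38, edgeR adjusted p = 0.0121) or without the third (1.32, edgeR adjusted p = 0.0164), and Gli3 missed it in 5 of 6 fits that left out a library, at an adjusted p of up to 0.0609 without the third control. Without the second control library the rises were 2.48 for Gli2 and 1.46 for Gli3.

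Gli1 had 17.8, 19.5 and 16.1 CPM in iHoxc9, against 9.28, 17.5 and 8.05 CPM in control, so the second control library lay within the iHoxc9 range. The log2 fold change of 0.62 (SE 0.25, edgeR adjusted p = 0.0727) did not pass. Without that library, Gli1 passed as higher (1.04, edgeR adjusted p = 0.00147), as did Ptch1 (0.81, edgeR adjusted p = 0.00410), which gives 6 rather than 4 genes higher and 3 rather than 1 past the stricter call. With it, Ptch1 had 144, 155 and 126 CPM in iHoxc9 against 85.4, 131 and 75.7 CPM in control (log2 fold change 0.54, SE 0.21, edgeR adjusted p = 0.0615). Without the first or the third control library, 3 of the 9 genes passed: Hhip, Boc and Gas1.

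In iHoxc10 neurons Gli1 was low in every library, at 4.34, 3.19 and 4.34 CPM, below all other libraries of the series. Against control it fell by 1.55 (SE 0.26, 2.93-fold lower, edgeR adjusted p = 0.000188). Smo had 58.2, 66.8 and 67.9 CPM there, against 74.8, 123 and 118 CPM in control, and fell by 0.71 (SE 0.15, 1.64-fold lower, edgeR adjusted p = 0.00153). The call for Smo was lost without the third control library (edgeR adjusted p = 0.0137) or the first iHoxc10 library (edgeR adjusted p = 0.0144). Gli2 (-0.66, SE 0.37), Gli3 (-0.67, SE 0.28) and Ptch1 (0.07, SE 0.21) did not pass.

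In iHoxc6 and iHoxc8 neurons the Gli genes, Ptch1 and Hhip overlapped with control. In iHoxc6, Gli1 had 12.6, 7.84 and 13.3 CPM, Gli2 had 5.72, 3.02 and 5.45 CPM, and Gli3 had 5.96, 5.29 and 6.81 CPM. Their log2 fold changes against control were -0.05 (SE 0.25), 0.20 (SE 0.35) and 0.10 (SE 0.27), and all 3 changed sign with the library left out. In iHoxc8, Gli1 had 9.61, 5.54 and 9.98 CPM, Gli2 had 4.26, 2.64 and 3.97 CPM, and Gli3 had 7.63, 4.57 and 10.4 CPM. The second iHoxc8 library was the lowest for all 3. Their log2 fold changes against control were -0.47 (SE 0.25), -0.18 (SE 0.36) and 0.42 (SE 0.27). Ptch1 had 127, 96.8 and 133 CPM in iHoxc6 (log2 fold change 0.29, SE 0.21) and 141, 83.7 and 156 CPM in iHoxc8 (0.38, SE 0.21). Smo had 96.8, 88.3 and 103 CPM in iHoxc6 (-0.13, SE 0.15) and 86.0, 73.8 and 94.2 CPM in iHoxc8 (-0.32, SE 0.15).

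Some cell state markers also differed from control in iHoxc9 and iHoxc10. In iHoxc9, the neural progenitor list summed to between 1282 and 1387 CPM, which overlapped the controls at 725 to 1363 CPM. Sox1 and Sox2 rose there against control and Hes5 fell. The cycling list summed to between 529 and 573 CPM, within the controls' range of 338 to 743 CPM, with Cdk1 lower and the other 3 not passed. The 743 CPM came from the second control library, and the other controls, at 338 and 448 CPM, lay below every iHoxc9 library. The motor neuron list summed to between 254 and 274 CPM, against 493 to 523 CPM in control, with 4 of 5 genes lower. The floor plate list summed to between 236 and 355 CPM, against 363 to 471 CPM in control, with 2 of 4 genes lower. Map2 was the neuronal marker that rose in iHoxc9, and Map2 and Dcx rose in iHoxc10. In iHoxc10 the cycling list summed to between 312 and 388 CPM with 2 of 4 genes lower, the motor neuron list to between 477 and 536 CPM with 1 of 5 lower, and the neural progenitor list to between 935 and 1119 CPM with 1 of 5 lower. The 4 floor plate genes did not pass there. The neural progenitor sums of iHoxc10 lay within the range of the controls, as did those of iHoxc6 (1175 to 1227 CPM) and iHoxc8 (1210 to 1316 CPM). The upper end of that range, 1363 CPM, was the second control library alone. The other controls, at 725 and 811 CPM, lay below every iHox library. None of these markers was at 0 in a group, and their part in the results was not tested.

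**Figure D4:**
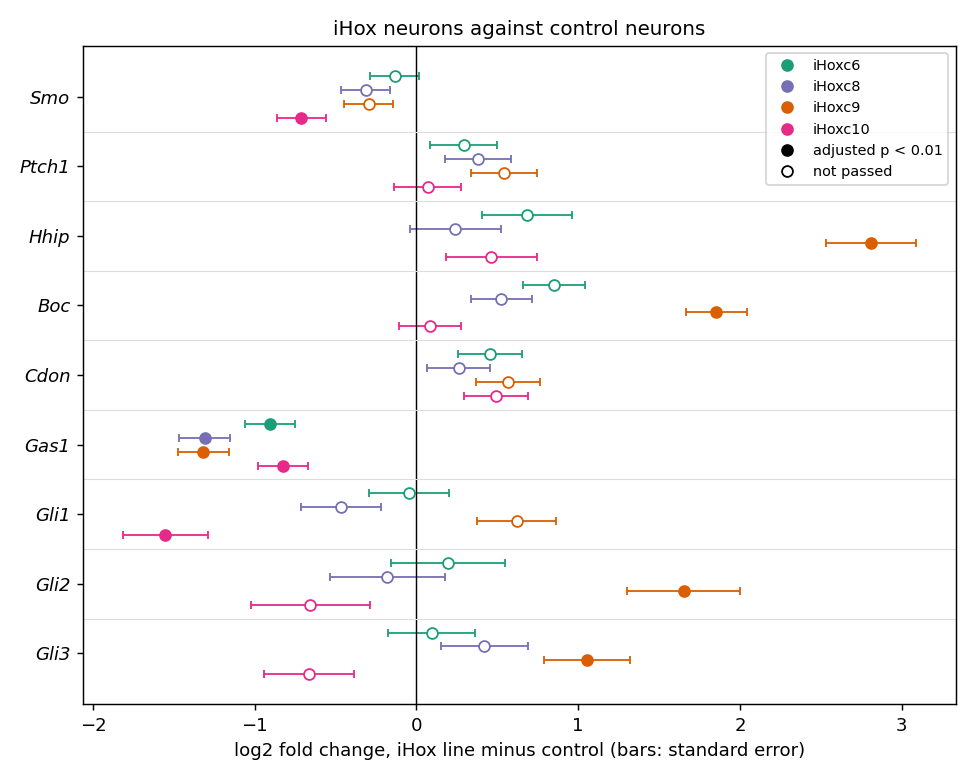
Log2 fold changes of the 9 genes in the 4 iHox lines against control neurons (above 0 means higher in the iHox line), with the standard error as bars; filled points passed at an adjusted p under 0.01. Hhip, Boc, Gli2 and Gli3 in iHoxc9 lay above 0 at 2.81, 1.85, 1.65 and 1.05, and Gas1 lay below 0 in all 4 lines.

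The posterior lines were also compared directly. iHoxc9 and iHoxc10 libraries were sequenced in the same run and use no control library. Gli1, Gli2, Gli3, Hhip and Boc were higher in iHoxc9, 5 of 9 genes where 2.6% of all genes were higher and 3 of them past the stricter call, which 1.31% of all genes passed, and none of the 9 was lower by this edgeR test, where 2.4% of all genes were, although Gas1 was by unadjusted p and by DESeq2. For 8 of the 9 genes the groups did not overlap, as for 31% of all genes. The median of the 9 was 1.72, against 0.03 over all genes.

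Gli1 was at 17.8, 19.5 and 16.1 CPM in iHoxc9 and at 4.34, 3.19 and 4.34 CPM in iHoxc10, which is a difference of 2.17 (SE 0.26, 4.5-fold, edgeR adjusted p = 5.25e-06). Gli2 was at 12.2, 14.6 and 11.98 CPM against 2.56, 1.86 and 3.44 CPM, a difference of 2.31 (SE 0.36, 4.95-fold, edgeR adjusted p = 0.000132). Gli3 was at 11.7, 12.7 and 10.7 CPM against 2.94, 4.76 and 2.92 CPM, a difference of 1.72 (SE 0.28, 3.3-fold, edgeR adjusted p = 0.00017). Every iHoxc9 library exceeded every iHoxc10 library by more than the range within either group, for the activators and for the repressor-forming Gli3 alike.

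Hhip was at 20.6, 23.3 and 15.1 CPM in iHoxc9 against 3.33, 4.87 and 3.40 CPM in iHoxc10, a difference of 2.35 (SE 0.27, 5.09-fold, edgeR adjusted p = 2.59e-06). Boc was at 15.1, 17.6 and 16.3 CPM against 5.22, 4.62 and 4.50 CPM, a difference of 1.77 (SE 0.19, 3.41-fold, edgeR adjusted p = 9.08e-07). These 5 calls held in all 6 fits that left out a library, with adjusted p-values of up to 0.00319 in those 6, and in the fit with a replicate block. The other feedback gene, Ptch1, was at 144, 155 and 126 CPM against 109.6, 107 and 89.8 CPM, apart but with a difference of 0.47 (SE 0.21, edgeR adjusted p = 0.2) that did not pass.

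Smo was higher in all 3 iHoxc9 libraries (86.6, 88.4 and 82.5 CPM against 58.2, 66.8 and 67.9 CPM) by 0.42 (SE 0.15, edgeR adjusted p = 0.104). Gas1 was lower in all 3 (5.48, 5.62 and 5.69 CPM against 6.83, 8.46 and 8.35 CPM) by a log2 fold change of -0.49 (SE 0.16, edgeR adjusted p = 0.0591). Ptch1 and Smo passed when only these groups were fitted, at adjusted p-values of 0.00737 and 0.00827, and Gas1 passed by DESeq2 at 0.00899. Cdon, at 0.07 (SE 0.20), overlapped.

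In this comparison the cycling list was higher in iHoxc9, with sums of 529 to 573 CPM against 312 to 388 CPM and Cdk1 passing, and the neural progenitor list was higher, with sums of 1282 to 1387 CPM against 935 to 1119 CPM and Sox1 and Sox2 passing. The motor neuron list was lower, with 4 of 5 genes passing. Cdk1, Sox1 and Sox2 were higher by 0.62 (SE 0.15), 0.77 (SE 0.19) and 0.69 (SE 0.14) on the log2 scale, and their part in the differences of the Gli genes, Hhip and Boc was not tested.

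Against iHoxc6, 3 of the 9 genes were higher in iHoxc9, where 8.02% of all genes were, and the groups did not overlap for 6 of the 9, as for 49% of all genes. Hhip differed by 2.13 (SE 0.27, 4.37-fold, edgeR adjusted p = 4.31e-06) and passed the stricter call, which 2.49% of all genes passed. It no longer exceeded that fold without the second library of either line. The others differed less, Gli2 by 1.46 (SE 0.34, 2.74-fold, edgeR adjusted p = 0.00396) and Boc by 1.00 (SE 0.18, 2.01-fold, edgeR adjusted p = 0.000394). Gli2 missed the threshold without the second iHoxc6 library (edgeR adjusted p = 0.0427) or the second iHoxc9 library (0.0178), and when only these groups were fitted 5 genes passed, with Gli1 and Gli3 added. Against iHoxc10, 3 genes were higher in iHoxc6, where 4.86% of all genes were higher and 6.17% lower, and 4 of the 9 did not overlap, as for 42.9% of all genes. They were Gli1 by 1.51 (SE 0.26, 2.84-fold, edgeR adjusted p = 0.000384), Boc by 0.77 (SE 0.19, edgeR adjusted p = 0.00600) and Smo by 0.58 (SE 0.15, edgeR adjusted p = 0.00935). Boc and Smo each lost their call whichever library was left out, and Gli1 did not.

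Markers moved here too. In iHoxc9 against iHoxc6, all 4 floor plate genes were lower (sums of 236 to 355 against 559 to 779 CPM), as were 2 of 5 motor neuron genes (254 to 274 against 377 to 428 CPM) and 1 of 4 cycling genes (529 to 573 against 471 to 573 CPM). Of the neural progenitor genes 2 were higher and 1 lower (1282 to 1387 against 1175 to 1227 CPM), and 1 of 5 neuronal genes was higher. In iHoxc6 against iHoxc10, 2 of 4 cycling genes were higher (471 to 573 against 312 to 388 CPM), as were 1 neural progenitor gene and 1 motor neuron gene, and 2 neuronal genes were lower. Their part in the differences was not tested.

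The 6 groups were ordered by the mean of each gene, and neighbors in the order were compared. Of 45 pairs of neighbors 8 differed, and 13 did without the second control library. Day 2 was first for every gene but Boc. Below day 2, iHoxc9 was next for Ptch1, Gli1, Gli2, Gli3, Hhip and Cdon. The largest steps between neighbors were from day 2 to iHoxc9 for Gli1 (107 ± 3.796 to 17.8 ± 1.70 CPM, SD, n = 3) and Gli3 (47.5 ± 4.94 to 11.7 ± 1.00 CPM), and from iHoxc9 to iHoxc6 for Hhip (19.7 ± 4.18 to 4.51 ± 0.51 CPM). For Ptch1 the 5 day 4 groups, from 142 ± 14.6 CPM in iHoxc9 to 97.4 ± 29.6 CPM in control, showed no step that passed. For Smo the step from day 2 to control passed and no other did, and for Gas1 the step from control (13.97 ± 1.74 CPM) to iHoxc10 (7.88 ± 0.91 CPM) passed while those among the 4 iHox lines did not. For Boc (from iHoxc9, through day 2, iHoxc6, iHoxc8 and iHoxc10, to control) and Cdon no neighbors differed.

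Levels were compared between genes as CPM per kilobase of merged exon. On day 2, Smo had 34.2 ± 0.35, Gli1 21.5 ± 0.76, Ptch1 21.2 ± 2.38 and Gas1 11.1 ± 0.15 CPM per kilobase (SD, n = 3), followed by Cdon (5.14), Gli3 (4.95), Gli2 (3.26), Boc (2.65) and Hhip (2.26). In control neurons Smo (18.7 ± 4.73) and Ptch1 (6.86 ± 2.08) led, and Gli1 (2.33 ± 1.03) lay beside Cdon (2.34 ± 0.29). By this measure Gli1 stood level with Ptch1 on day 2 and well under it in control neurons. The merged exons of all annotated transcripts span 14.185 kb for Ptch1 and 4.995 kb for Gli1, and the transcripts in use were not determined. Unscaled, Ptch1 had 300 CPM and Gli1 107 CPM on day 2. In iHoxc9 neurons Gli1 had 3.56 ± 0.34, Gli2 1.88 ± 0.21 and Gli3 1.22 ± 0.10 CPM per kilobase. In iHoxc10 neurons the 3 Gli genes were all low, at 0.79 ± 0.13, 0.38 ± 0.12 and 0.37 ± 0.11, beside Smo at 11.4 ± 0.94.

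A further 42 genes of the pathway were read in the same fit, in 6 lists by role. In control neurons against day 2, 12 were higher and 13 lower, where 21.2% of all genes passed in each direction, with a median log2 fold change of -0.17 against 0 over all genes. Of the 8 genes for ligands and their release, 3 rose and 1 fell. Shh, the ligand made by the floor plate and by motor neurons, had 0.61, 2.46 and 5.97 CPM on day 2 and 31.4, 24.03 and 26.1 CPM in control and rose by 3.16 (SE 0.45, 8.96-fold, edgeR adjusted p = 2.93e-06). Scube1 and Scube3, secreted proteins of the family that releases the ligand from cells, rose by 1.28 (SE 0.14) and 1.18 (SE 0.15), while Scube2 fell by 1.82 (SE 0.34). Ihh reached at most 0.84 CPM in any library and did not pass against day 2, and Dhh, with between 0 and 2 counts summed over a group, was under the floor.

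Of the 5 genes for reception all passed against day 2, 4 of them lower. Lrp2, an endocytic receptor that binds Shh, fell by 3.52 (SE 0.32, 11.5-fold lower), and Evc and Evc2, ciliary partners of Smo, fell by 1.60 (SE 0.19) and 1.45 (SE 0.19). Of the 10 cytoplasmic regulators 5 rose and 1 fell. The 1 was Kif7, the kinesin that organizes Gli proteins at the cilium tip, which fell by 1.01 (SE 0.19), while Stk36 rose by 1.99 (SE 0.18), Gsk3b by 1.03 (SE 0.19) and Btrc by 1.00 (SE 0.11). Sufu, which holds Gli proteins inactive, was at 34.7 ± 9.35 CPM (SD, n = 3) on day 2 and 29.6 ± 11.5 CPM in control, with a log2 fold change of -0.23 (SE 0.20, edgeR adjusted p = 0.374). Of the 6 genes of cilium transport, Kif3a rose by 1.24 (SE 0.15), 1 other gene fell and 4 did not pass.

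Transcription factors that divide the neural tube are raised or lowered by Hedgehog signaling. Of the 6 listed as raised by it 1 rose and 2 fell. Nkx2-2 rose by 1.01 (SE 0.23), with overlap between the groups, and Nkx2-9 fell by 3.73 (SE 0.38, 13.3-fold lower). Of the 7 listed as lowered by it, 1 rose and 4 fell. Dbx1 fell by 4.15 (SE 0.34, 17.8-fold lower) and Pax6 fell by 3.54 (SE 0.21, 11.6-fold lower). Dbx2 fell by 1.53 (SE 0.40) and Msx1 fell by 1.27 (SE 0.39), and the means of both were under 1 CPM.

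Between iHoxc9 and iHoxc10, 3 of the 42 were higher and 2 lower in iHoxc9, where 2.6% of all genes were higher and 2.4% lower. Dbx1, a factor of interneuron progenitors dorsal to the motor neuron domain, had 16.3, 14.2 and 17.4 CPM in iHoxc9 and 0.88, 0.54 and 0.85 CPM in iHoxc10, a difference of 4.40 (SE 0.33, 21.1-fold, edgeR adjusted p = 3.76e-09). Scube2 had 4.34, 4.33 and 4.42 CPM against 0.18, 0.54 and 0.57 CPM, a difference of 3.36 (SE 0.34, 10.2-fold, edgeR adjusted p = 3.24e-07). Both genes were high in iHoxc9 in every library, above day 2 as well for Scube2 at 1.46 to 1.87 CPM. Pax6 was 3.86-fold higher (log2 fold change 1.95, SE 0.21, edgeR adjusted p = 1.4e-06).

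Shh had 3.87, 8.36 and 3.14 CPM in iHoxc9 and 19.6, 31.2 and 16.3 CPM in iHoxc10, and was 4.31-fold lower in iHoxc9 (log2 fold change -2.11, SE 0.43, edgeR adjusted p = 0.00203). Irx3, a factor of intermediate progenitors, was 2.94-fold lower (log2 fold change -1.56, SE 0.14, edgeR adjusted p = 1.19e-07). Shh is also 1 of the 4 floor plate markers, of which Foxa2 and Ntn1 did not pass; the 4 summed to between 236 and 355 CPM in iHoxc9 and between 402 and 634 CPM in iHoxc10. Sufu (40.0 ± 2.77 against 35.9 ± 4.02 CPM) and Kif7 (21.4 ± 0.76 against 12.7 ± 0.80 CPM, edgeR adjusted p = 0.0125) did not pass, although the Kif7 libraries did not overlap.

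Against control, 9 of the 42 were higher and 5 lower in iHoxc9, where 6.95% of all genes were higher and 7.13% lower. In iHoxc10 7 of the 42 were higher and 5 lower, where 6.67% and 7.75% of all genes were. Scube2 and Dbx1 rose in iHoxc9 by 3.24 (SE 0.33, 9.46-fold) and 4.98 (SE 0.34, 31.6-fold), Lrp2 by 1.41 (SE 0.32) and Kif7 by 0.76 (SE 0.19), and Shh fell by 2.39 (SE 0.43, 5.24-fold lower). Nkx2-2 rose in both lines, by 1.79 (SE 0.22) in iHoxc9 and 1.16 (SE 0.22) in iHoxc10, and Nkx2-9 fell in both, by 3.30 (SE 0.50) and 3.09 (SE 0.49). Pax6 fell in iHoxc10 by 1.28 (SE 0.22). In iHoxc6 and in iHoxc8 the gene that passed was Nkx6-2, named here after its values were seen because it was alone. It fell by 1.79 (SE 0.27) and 1.81 (SE 0.27). Its low level was shared by all 4 lines, with means of 3.20, 3.17, 2.87 and 2.90 CPM from iHoxc6 to iHoxc10, against 11.1 CPM in control. Of the 6 factors listed as raised by Hedgehog signaling, 1 rose and 3 fell in iHoxc9, and as many did in iHoxc10.

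**Figure D5:**
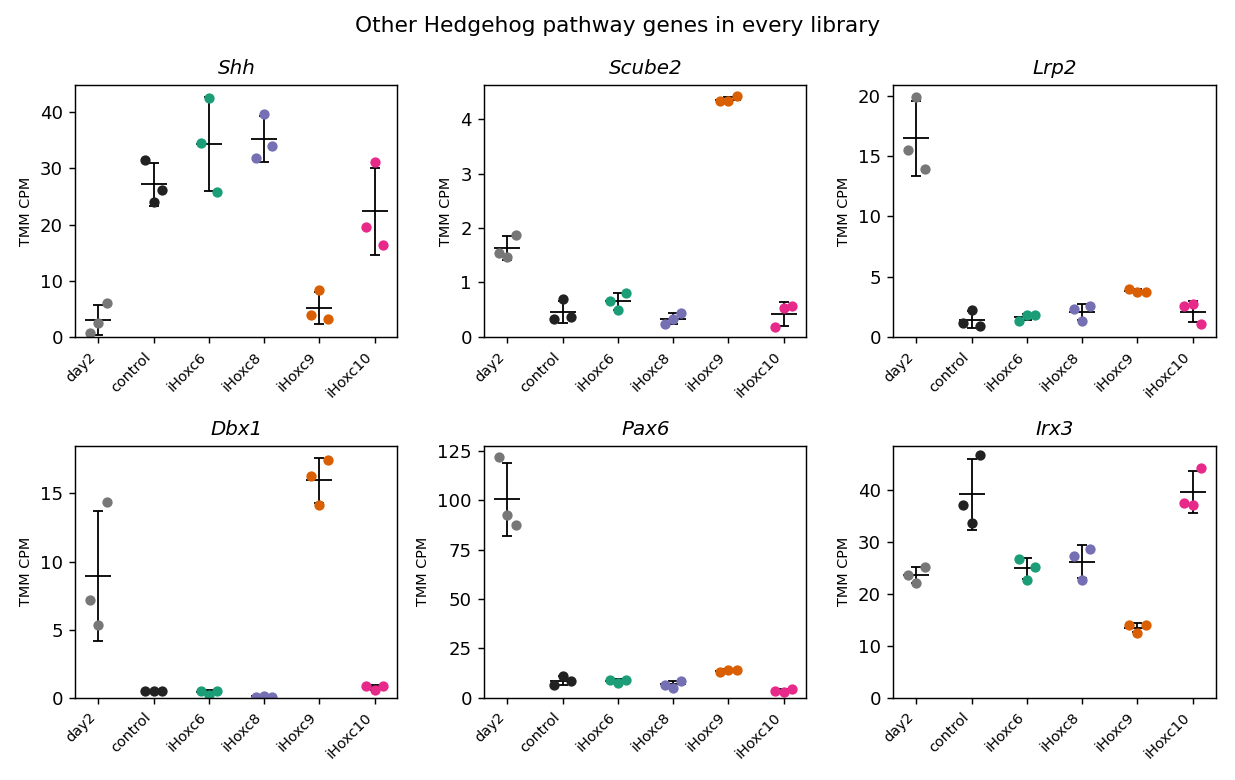
TMM-scaled CPM (linear axes from 0) of 6 other genes of the pathway in the 3 libraries of each group, as points, with the mean as a horizontal line and the SD as bars. In iHoxc9, Scube2 (4.33 to 4.42 CPM) and Dbx1 (14.2 to 17.4 CPM) stood above every other day 4 library, and Shh (3.14 to 8.36 CPM) and Irx3 (12.5 to 14.04 CPM) stood below.

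Genes with the most similar profile were sought for the 3 members with the widest range of group means, which spanned 4.46 for Gli1, 3.44 for Gli3 and 2.699 for Gli2 on the log2(CPM + 1) scale. The measure was the root mean square difference between centered log2(CPM + 1) profiles over the 18 libraries, among 13192 genes with a mean of at least 1 CPM. The 3 nearest to Gli1 were Pax6 (0.21), Thbs1 (0.35) and Gli3 (0.43). The 3 nearest to Gli3 were Ptpn14 (0.26), Agtr1a (0.27) and Ccnd2 (0.33). The 3 nearest to Gli2 were Zbtb16 (0.39), Gata6 (0.40) and Agtr1a (0.41). All 3 lists changed with a pseudocount of 0.1. Plekhg3 then replaced Thbs1 for Gli1 and Ccnd2 for Gli3, and for Gli2 Gata6 came first and Cdk6 entered in place of Zbtb16. Libraries share groups, so these distances mostly follow the 6 group means and carry no test.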

How the data were processed

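RNA-seq libraries (polyA RNA, 3 per group) were aligned by the authors with STAR (2.7.0c), assigned to RefSeq genes of mm10 with featureCounts and deposited as unnormalized read counts per Entrez identifier, each library kept apart. Symbols were matched for 25275 of 27179 identifiers. The strand setting is not given in the sources used here. Counts of the 20944 genes with 1 count or more in an iHox library were tested in R 4.3.3 with edgeR 4.0.16 (TMM factors, quasi-likelihood F test, group as the only term). Standard errors came from the F statistic. The code was tested on simulated data.

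The members and the gene lists were chosen with earlier results of these data known. All 9 members were named in every comparison. Other pathway genes were named at an adjusted p under 0.01 with a log2 fold change beyond 1 in control against day 2 or iHoxc9 against iHoxc10, besides Shh, Ihh, Dhh, Sufu and Kif7; some results under this rule are not reported here. Exon lengths came from GENCODE on GRCm38, coordinates and promoters from RefSeq (GRCm38.p6).

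Alternatives were DESeq2 1.42.0, its size factors, 10 counts or more in 3 libraries, only the compared groups, a replicate block, a fold threshold of 1 and each library left out. Equal replicate numbers deviated together (every r above 0.1) for iHoxc9 with iHoxc10 (0.41 to 0.58) and for iHoxc6 with iHoxc9 (0.11 to 0.19). An exact two-sided permutation test of 3 against 3 cannot go below 0.1, so none was used.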

Additional observations from a re-analysis of the deposited data

How the results depend on the processing

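Of the 1188 log2 fold changes recomputed for the 9 genes, 1105 kept their direction and their side of the threshold, 41 lost it, 23 gained it and 19 changed sign. With a fold threshold of 1 on the log2 scale in place of 2, the genes past it numbered 8 rather than 4 in control against day 2, 1 rather than 0 in iHoxc8, 5 rather than 1 in iHoxc9 and 1 rather than 0 in iHoxc10 against control, 5 rather than 3 in iHoxc9 and 8 rather than 5 in iHoxc10 against day 2, 5 rather than 3 in iHoxc9 against iHoxc10, 3 rather than 1 in iHoxc6 against iHoxc9 and 1 rather than 0 in iHoxc6 against iHoxc10. With DESeq2, 2 members rather than 1 passed in iHoxc6 against control, and of the 42 other pathway genes 2 rather than 1 passed in iHoxc6 against control, 4 rather than 1 in iHoxc8 against control and 8 rather than 5 in iHoxc9 against iHoxc10. With only the compared groups fitted, 0 members rather than 1 passed in iHoxc6 against control, 5 rather than 3 in iHoxc6 against iHoxc9 and 5 rather than 3 in iHoxc6 against iHoxc10. At the fold threshold of 1, Ptch1 and Smo also went past it against day 2, in iHoxc6 (-1.33 and -1.004) and in iHoxc8 (-1.24 and -1.18). Fitting only the compared groups also added Ptch1 and Smo in iHoxc9 against iHoxc10. Smaller changes in number are not all listed here. The causes of these changes were not tested.

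Leaving out a library gave between 0 and 2 members passed in iHoxc6 against control, 1 and 2 in iHoxc8 against control, 3 and 7 in iHoxc9 against control (past the fold threshold 1 to 3) and 1 in every fit of iHoxc6 against iHoxc10. Past the fold threshold, iHoxc6 against iHoxc9 gave 0 to 1, with 0 without the second library of iHoxc6 or iHoxc9. The neighbors that differed in the order of levels ranged from 7 to 13. The changes of sign were all in differences that had not passed. In iHoxc6 against control, Gli1 ranged from -0.24 to 0.37, Gli2 from -0.10 to 1.03 and Gli3 from -0.11 to 0.50. In iHoxc8 against control, Gli2 ranged from -0.50 to 0.65 and Hhip from -0.0905 to 0.61. In iHoxc10 against control, Ptch1 ranged from -0.0723 to 0.34, Gli2 from -0.95 to 0.18 and Boc from -0.0555 to 0.40. Hhip in iHoxc9 against day 2 ranged from -0.23 to 0.0599, Cdon in iHoxc9 against iHoxc10 from -0.0645 to 0.13, and in iHoxc6 against iHoxc10 Cdon ranged from -0.13 to 0.0689 and Gas1 from -0.17 to 0.00561.

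The replicate block left 9 members passed in control against day 2, 5 in iHoxc9 against control and 5 in iHoxc9 against iHoxc10. It changed a single call, Cdon in iHoxc10 against day 2, where 8 rather than 9 members passed. With 3 libraries a group, small differences such as those of the Gli genes in iHoxc6 cannot be called absent.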
